A study of Mus musculus with 6 samples.

Results

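The genes described here are those of the mouse Clec series, named for the C-type lectin domain. They were taken as all array probes whose gene symbol in the platform annotation begins with Clec and a digit, which gave 47 probes of 30 genes among 46619 probes of 19406 named genes. The cells were mTECs, the epithelial cells of the thymic medulla, from C57Bl/6 mice, labelled as high in MHC class II. There were 3 samples from Aire knock out mice and 3 from wildtype mice of that strain, each on its own Illumina bead array. The labels name neither the knock out allele, nor the age of the mice, nor whether a sample pooled several mice. P-values therefore describe the spread between these samples, which may be technical.

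The C-type lectin domain is a protein fold that in many receptors binds sugars in a calcium-dependent way and in others binds proteins or lipids. Most Clec genes encode receptors of myeloid cells, platelets or endothelium, and the Clec2 genes encode surface ligands for receptors of natural killer cells. mTECs display proteins of many peripheral tissues to developing T cells, and Aire is the transcriptional regulator that many of these tissue genes need there.

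Aire itself averaged 10.22 ± 0.19 on its brighter probe (3520685) in Aire knock out samples and 13.53 ± 0.13 in wildtype samples (log2 values, SD, n = 3 each), with a change of -3.31 (SE 0.12). Where the probes lie relative to the deleted part is not given. Of 15 mTEC markers on the array 14 were above background, and Foxn1 was not. Their summed linear level was 112700 to 115900 in knock out samples and 108900 to 118900 in wildtype samples, a sum carried by its brightest genes. Within the list Krt5 (-1.83) and Krt14 (-0.70), keratins of basal epithelium, fell. Tnfrsf11a (+0.51), which encodes RANK, the MHC class II gene H2-Aa (+0.45) and Ciita (+0.37), a regulator of such genes, rose. H2-Ab1 (+0.10), a brighter MHC class II gene, and Cd74 (-0.03) did not pass. Arrays correlated with Pearson r of 0.984 to 0.994 within a genotype and 0.909 to 0.935 between genotypes, across probes that are not independent replicates. Each of the 2 beadchips held both genotypes. Females were knock out replicate 2 and wildtype replicates 1 and 3, and the date label of wildtype replicates 1 and 2 precedes that of the remaining samples.

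In Aire knock out samples a pair of liver-type lectin receptor genes, Clec4f and Clec4g, lay at background, and Clec2m and Clec1b fell by less. Clec2i and Clec16a rose by less than 1 log2 unit, and Clec12b and Clec7a rose slightly. Clec2d, the ligand gene with the brightest Clec probe, did not pass the test, nor did Clec2e and Clec11a. Testing was limited to probes that exceeded a background bound of 6.80 log2 units on 3 or more of the 6 arrays, which 14 of the 47 probes did, covering 11 of the 30 genes. A call is an adjusted p under 0.05 (limma, Benjamini-Hochberg over all 19547 tested probes). By probe, 4 were called lower, against a background of 17.7% of all tested probes, and 5 were called higher, against 20.7%, so that 9 of 14 were called in either direction, against 38.4%. By gene, each at its brightest tested probe, 4 of 11 were lower and 4 of 11 higher, against 23.1% and 18.3% of all tested named genes, or 8 of 11 in either direction, against 41.4%. The groups did not overlap in 4 tested Clec genes that were lower and 5 that were higher, against 27.2% and 27.1% of tested named genes. By probe these were 4 lower and 7 higher, against 21% and 31.8%. The probes of Clec4f, Clec4g and Clec2m passed the filter through the wildtype arrays alone, so no count over the tested genes stands as support for a direction. With every probe on the array tested, the count of 47 Clec probes called lower was again 4, against 8.56% of all probes, and that called higher was 4, against 8.48%.

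**Figure D1:**
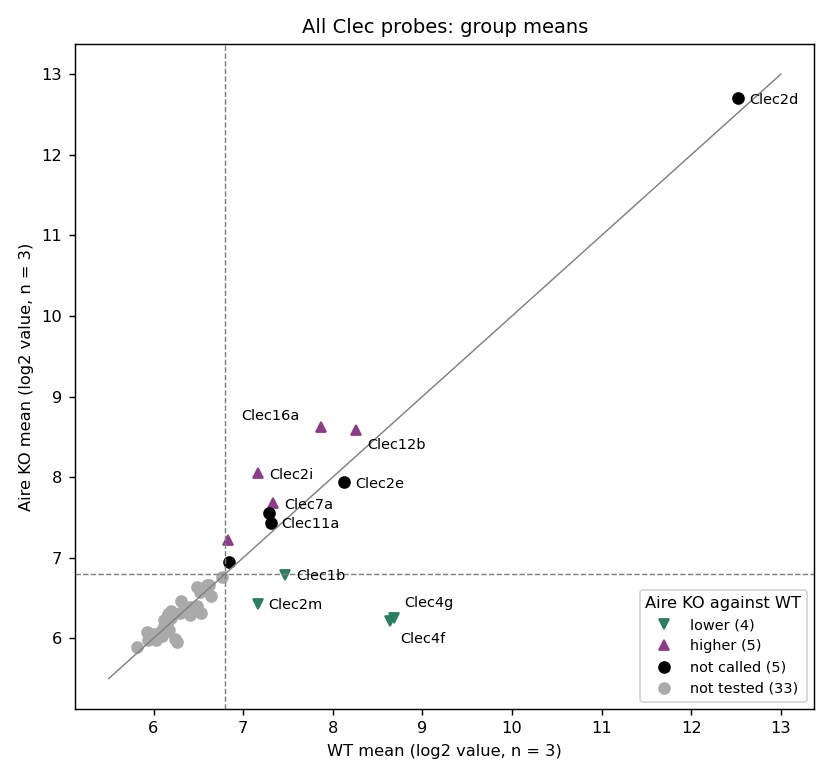
Mean log2 value of each of the 47 Clec probes in Aire knock out (vertical axis) and wildtype samples (horizontal axis), n = 3 each, with the background bound dashed and the line of equality solid. The 33 untested probes sit at the lower left, Clec4f and Clec4g lie near 6.2 in knock out and above 8.6 in wildtype samples, and Clec2d lies far from all others at the upper right.

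The deposited values had a median change of 0.10 over all tested probes, so a change near that size is no change relative to the bulk of probes. Cyclic loess between the arrays brought this median to -0.00027, and setting the median level of 21 housekeeping genes equal on all arrays brought it to -0.11. That housekeeping scaling is a coarse setting, because the fit after it gave every Clec probe the same SE of 0.226. The median change of the 21 genes in the deposited values was -0.0017. Setting their median level equal nevertheless lowered the change of each tested Clec probe, for example that of Clec2i from 0.88 to 0.67. These are different measures, and whether the housekeeping genes differed between the genotypes was not tested. The calls over all tested probes were 3463 lower and 4045 higher in the deposited values. They were 4139 and 2348 with cyclic loess and 3354 and 672 with housekeeping scaling. Called Clec probes are therefore also given relative to the median of all probes.

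Clec4g encodes LSECtin, a lectin receptor known from the sinusoidal endothelium of the liver. Its probe 6100239 read 6.12, 6.37 and 6.27 in knock out replicates 1 to 3, and 8.64, 8.76 and 8.65 in wildtype replicates 1 to 3. All knock out values lay at background and all wildtype values well above it, with a gap of 2.28 between the groups. The change was -2.43 (SE 0.10, adjusted p = 1.19e-07, limma), which is at least 3.69-fold lower. Such a fold is a lower bound, taken between the wildtype mean and the dimmest value over the bound on the knock out arrays. A second Clec4g probe (105570451, designed on a different transcript record) was below background on all 6 arrays.

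Clec4f encodes a galactose-binding receptor that in mice is a mark of Kupffer cells, the macrophages of the liver. It read 6.28, 6.07 and 6.28 in knock out replicates 1 to 3, against 8.77, 8.50 and 8.63 in wildtype replicates 1 to 3. The groups lay 2.22 apart, with every knock out value at background. The change was -2.42 (SE 0.11, adjusted p = 1.94e-07), at least 3.57-fold lower. Relative to the median of all probes the changes were -2.53 for Clec4g and -2.52 for Clec4f. With beadchip as a block they were -2.46 and -2.41. Within beadchip 1 the change of Clec4g was -2.58 and that of Clec4f -2.36, and within beadchip 2 the changes were -2.33 and -2.45. In samples of many cells, fewer cells that express a gene and less RNA per cell cannot be told apart.

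The markers of the liver's own cells stood as follows beside these values. Of 5 markers of liver sinusoid and Kupffer cells on the array, Cd5l and Lyve1 were below background on all arrays, and the other 3 fell, against 23.1% of all tested named genes. These 3 passed the filter through the wildtype arrays alone, so their count stands as no support for a direction. Fcna, a ficolin gene, averaged 6.31 ± 0.07 in knock out samples and 9.71 ± 0.05 in wildtype samples (SD, n = 3 each), at least 7.50-fold lower. Stab2, a scavenger receptor of sinusoidal endothelium, was at least 1.25-fold lower and the macrophage receptor Marco at least 1.17-fold lower. The summed linear level of the 5 genes was 395.5 to 436.7 in knock out samples and 1231 to 1303 in wildtype samples, where 5 probes at background would sum to 371.6. Of 12 macrophage and monocyte markers on the array 6 were tested and 5 fell, against 23.1% of all tested named genes. Lyz2 did not pass (+0.20), and Mertk was not tested, with 1 wildtype array above the bound. Ccr2, Cd163, Fcgr1, Timd4 and Vsig4 were below background on all arrays. Those that fell were Cd14 (-2.01), C1qb (-1.41), C1qc (-1.40), C1qa (-1.26) and Adgre1 (at least 1.22-fold lower). Adgre1 passed the filter through the wildtype arrays alone, so this count too stands as no support for a direction. The summed linear level of the 12 genes was 7571 to 8547 in knock out samples and 7858 to 10050 in wildtype samples. Lyz2 carried most of this sum, with means of 12.69 in knock out and 12.49 in wildtype samples. The part of such cells in the result was not tested.

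The 250 bases before the annotated start of Clec4f and Clec4g are shown because both genes lay at background in knock out samples. They are from RefSeq's promoter table for GRCm38.p6, which matched all 11 tested Clec genes. That of Clec4f is the minus strand of chr6:83656117-83656366 and that of Clec4g the minus strand of chr8:3720652-3720901. Capitals mark CG dinucleotides and the TATA motif TATAAA, searched on both strands, so that its reverse complement TTTATA counts too.
Clec4f: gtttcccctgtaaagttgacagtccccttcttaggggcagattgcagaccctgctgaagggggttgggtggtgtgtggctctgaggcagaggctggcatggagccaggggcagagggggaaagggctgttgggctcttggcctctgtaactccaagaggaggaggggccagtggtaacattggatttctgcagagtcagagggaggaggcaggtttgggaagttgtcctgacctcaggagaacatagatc
Clec4g: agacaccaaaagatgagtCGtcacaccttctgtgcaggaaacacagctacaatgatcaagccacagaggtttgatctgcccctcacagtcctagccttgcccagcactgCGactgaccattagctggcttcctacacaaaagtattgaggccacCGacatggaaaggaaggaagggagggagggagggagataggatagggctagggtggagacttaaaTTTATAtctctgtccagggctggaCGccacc
The Clec4f stretch holds no CG and no TATA motif. The Clec4g stretch holds 4 CG and 1 TATA motif on the opposite strand, whose first base lies 31 bases before the start. Over all 32851 entries of the table the median was 6 CG per 250 bases, 7.87% held none and 12.4% held the TATA motif. These are descriptions of the letters and name no factor.

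**Figure D2:**
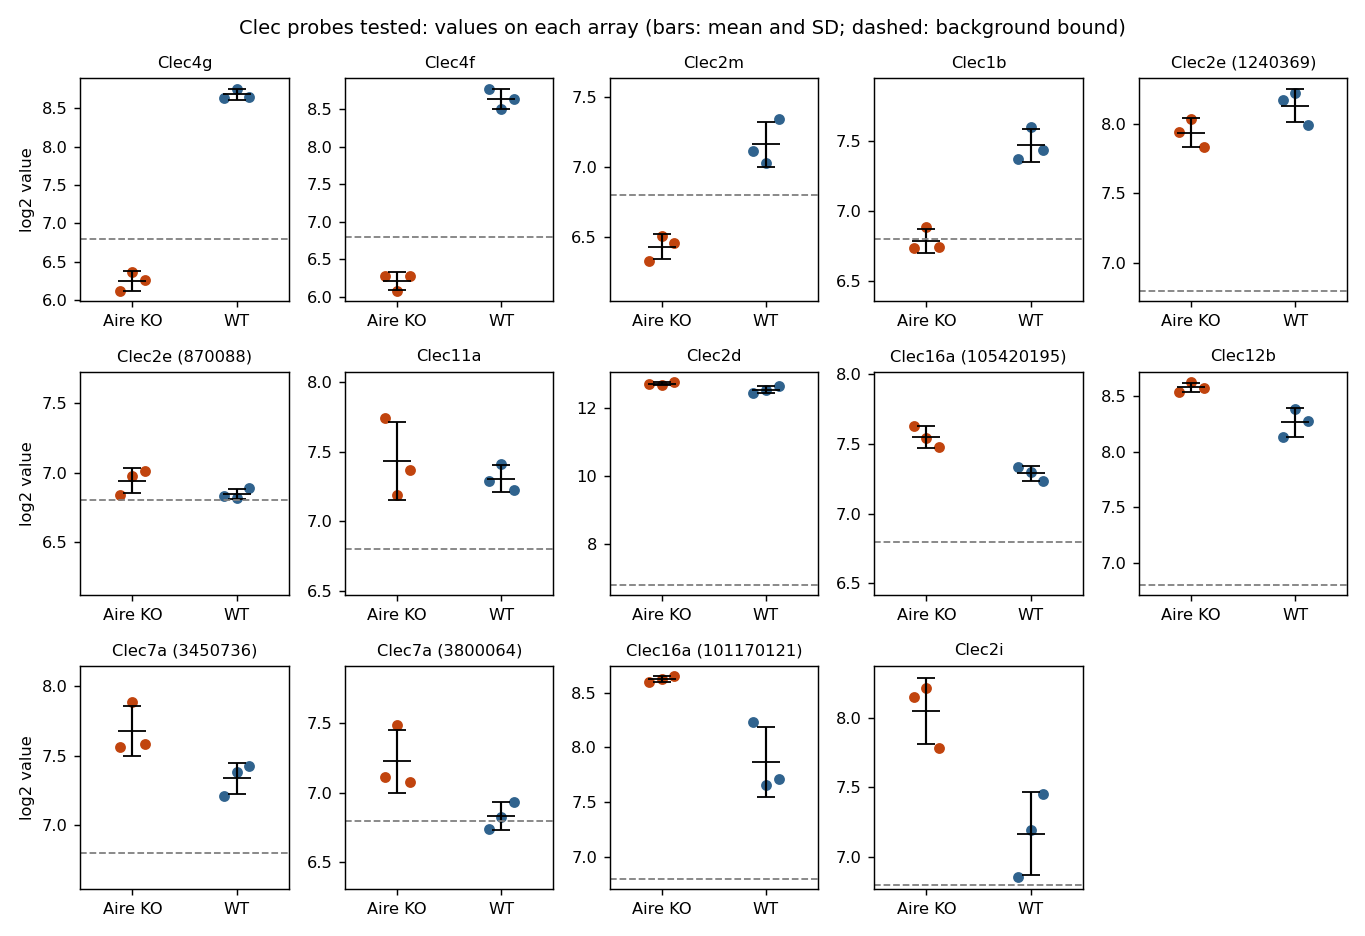
Log2 values on each array for the 14 tested Clec probes, Aire knock out samples at the left and wildtype samples at the right of each panel, with the mean and SD (n = 3) as bars and the background bound of 6.80 dashed. Vertical axes differ between panels and do not start at 0. The knock out samples of Clec4g, Clec4f and Clec2m lie below the bound and those of Clec1b around it, while those of Clec2i and Clec16a (101170121) lie above all wildtype samples.

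Clec1b and Clec2m were nearer to background in wildtype samples and fell by less. Clec1b encodes CLEC-2, the platelet receptor for podoplanin. Its probe 4280577 read 6.73, 6.88 and 6.74 in knock out replicates 1 to 3, and 7.37, 7.60 and 7.44 in wildtype replicates 1 to 3. The groups did not overlap, and 1 of 3 knock out values was above the bound. The change was -0.69 (SE 0.10, adjusted p = 6.60e-04), or -0.79 relative to the median of all probes. A second Clec1b probe (2190204) was below background on all 6 arrays, so the change rests on a single probe. Within beadchip 1 the Clec1b change was -0.76 (adjusted p = 0.0784) and within beadchip 2 -0.63 (adjusted p = 0.0565).

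Platelet markers are given beside Clec1b. Of 5 on the array the 3 that were tested fell, against 23.1% of all tested named genes. All 3 passed the filter through the wildtype arrays alone, so their count stands as no support for a direction. Treml1 was at least 3.44-fold lower, the chemokine Ppbp at least 2.23-fold and the platelet glycoprotein Gp9 at least 1.63-fold. Pf4 was above the bound on 2 wildtype arrays only and Itga2b on none. The summed linear level was 387.1 to 421.9 in knock out samples and 965.9 to 1043 in wildtype samples, where background would give 371.6. Their part in the Clec1b change was not tested.

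Clec2m lies among the Clec2 genes on chromosome 6. It read 6.33, 6.51 and 6.45 in knock out replicates 1 to 3, against 7.12, 7.03 and 7.35 in wildtype replicates 1 to 3. No knock out value was above background, and the groups lay 0.52 apart. The change was -0.73 (SE 0.11, adjusted p = 7.28e-04), at least 1.29-fold lower. Relative to the median of all probes it was -0.83, and within beadchip 2 it was -0.87. With beadchip as a block the change was -0.81, and within beadchip 1 it was -0.74 (adjusted p = 0.0674).

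The stretches before the starts of Clec2m (minus strand of chr6:129331782-129332031) and Clec1b (plus strand of chr6:129397047-129397296) are shown beside those above, with the same marks.
Clec2m: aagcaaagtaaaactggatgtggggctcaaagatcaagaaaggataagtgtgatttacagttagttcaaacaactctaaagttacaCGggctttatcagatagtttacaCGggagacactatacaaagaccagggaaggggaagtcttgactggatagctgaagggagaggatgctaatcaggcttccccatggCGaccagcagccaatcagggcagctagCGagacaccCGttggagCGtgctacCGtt
Clec1b: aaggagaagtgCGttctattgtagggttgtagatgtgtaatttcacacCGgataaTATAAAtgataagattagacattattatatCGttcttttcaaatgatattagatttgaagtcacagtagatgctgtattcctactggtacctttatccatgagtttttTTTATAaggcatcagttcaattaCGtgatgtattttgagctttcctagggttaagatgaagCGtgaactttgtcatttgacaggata
Clec2m held 7 CG and no TATA motif, and Clec1b held 5 CG and 2 TATA motifs, whose first bases lie 195 and 87 bases before the start. The 4 genes that fell thus held between 0 and 7 CG.

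**Figure D3:**
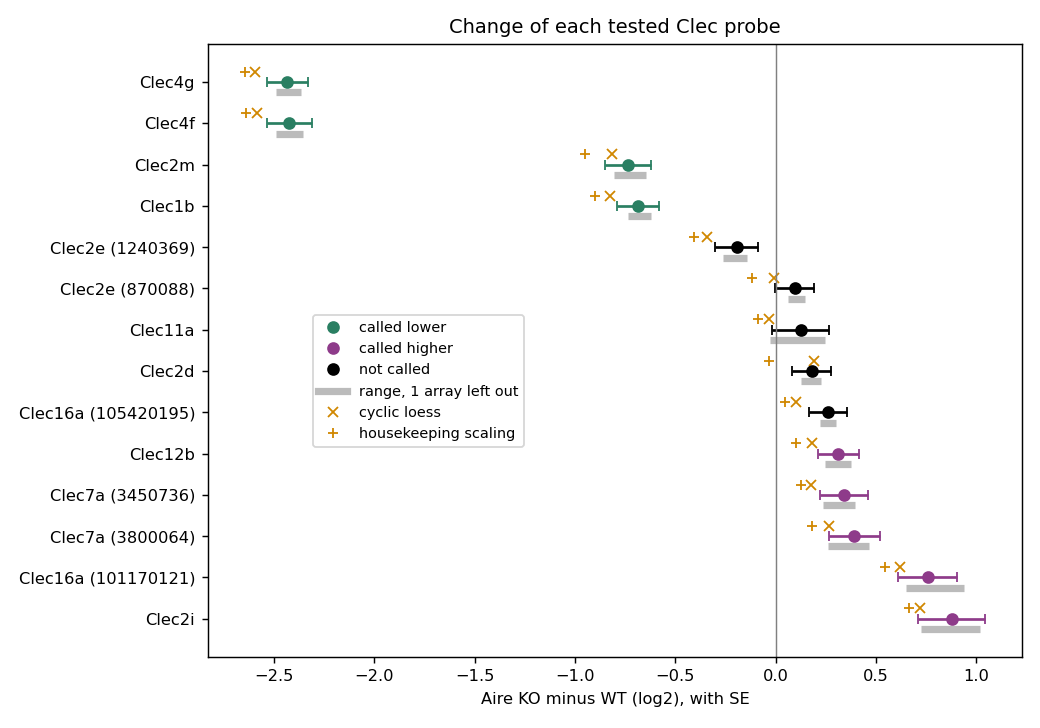
Change of each tested Clec probe, Aire knock out minus wildtype on the log2 scale (points with SE), the range when 1 array is left out (grey bars), and the change with cyclic loess (crosses) and housekeeping scaling (plus signs). Probe numbers are given for genes with several tested probes. Clec4g and Clec4f lie near -2.4, and both other scalings move each probe except Clec2d under cyclic loess to the left.

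The Clec2 genes encode the Clr proteins, ligands that natural killer cell receptors of the Klrb1 (NKR-P1) family recognise. Clec2d encodes Clr-b, a ligand of the inhibitory receptor Klrb1b, which is present on most blood cells. It read 12.70, 12.67 and 12.74 in knock out replicates 1 to 3, against 12.42, 12.53 and 12.62 in wildtype replicates 1 to 3. The knock out samples were all slightly higher, by 0.18 on average (SE 0.10, adjusted p = 0.170), which did not pass. Relative to the median of all probes the difference was 0.08, and with housekeeping scaling its sign turned (-0.03). Clec2e encodes Clr-a. Its brighter probe (1240369) averaged 7.94 ± 0.10 in knock out samples and 8.13 ± 0.12 in wildtype samples (SD, n = 3 each), a difference of -0.19 that did not pass (adjusted p = 0.176). With cyclic loess this probe was called lower (-0.34, adjusted p = 0.0312). The other Clec2e probe (870088) differed by +0.10 (adjusted p = 0.449), and by -0.12 with housekeeping scaling.

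Clec2i, which encodes Clr-g, a ligand of the receptor Klrb1f, rose. It read 8.15, 8.22 and 7.78 in knock out replicates 1 to 3, and 6.86, 7.19 and 7.45 in wildtype replicates 1 to 3. Each knock out value was above each wildtype value, with 0.33 between the groups. The change was 0.88 (SE 0.17, adjusted p = 0.00260), a 1.84-fold rise, or 0.78 relative to the median of all probes. With cyclic loess it was 0.72 and with housekeeping scaling 0.67, both called. Within beadchip 1 it was 1.12 and within beadchip 2 0.54, where it was not called (adjusted p = 0.170). Among the arrays with the later date label it was 0.59 (adjusted p = 0.0609). Clec2g and Clec2h, other Clr genes, were below background on all 6 arrays.

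Of 5 genes in a list called Clr receptors here and below, 3 were tested and 2 fell, against 23.1% of all tested named genes. Klrg2 among these is not a Klrb1 gene, so the counts for this list are not counts of the Klrb1 family alone. Klrb1f and Klrg2 were each above the bound on 1 knock out array and on all 3 wildtype arrays. Klrb1f averaged 6.74 ± 0.13 in knock out samples and 7.19 ± 0.04 in wildtype samples (SD, n = 3 each), a fall of -0.45 (SE 0.10, adjusted p = 0.00666). Klrg2 changed by -0.50 (SE 0.10, adjusted p = 0.00303), and Klrb1c by +0.08, which did not pass. Klrb1b was above the bound on 2 wildtype arrays and no knock out array. Klrb1a was below background throughout. The NK cell markers Gzma, Ncr1 and Prf1 were below background on all arrays. Klrd1, above the bound on wildtype arrays alone, was at least 1.09-fold lower. Eomes, above the bound on knock out arrays alone, was at least 1.64-fold higher (+0.86). The summed linear level of the 7 NK cell markers was 657.8 to 743 in knock out samples and 640.9 to 665.8 in wildtype samples.

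The stretch before the Clec2i start (plus strand of chr6:128887337-128887586) is shown for the ligand gene that rose.
Clec2i: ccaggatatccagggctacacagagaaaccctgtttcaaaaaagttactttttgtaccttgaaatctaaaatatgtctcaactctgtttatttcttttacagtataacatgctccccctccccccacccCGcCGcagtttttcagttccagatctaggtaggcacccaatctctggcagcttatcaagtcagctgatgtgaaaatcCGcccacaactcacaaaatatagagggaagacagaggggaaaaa
It held 3 CG and no TATA motif.

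Clec12b and Clec7a are receptors of myeloid cells in the same stretch of chromosome 6, Clec12b with an inhibitory motif in its tail and Clec7a, or Dectin-1, a receptor for fungal beta-glucans. Clec12b read 8.54, 8.62 and 8.57 in knock out replicates 1 to 3, and 8.13, 8.39 and 8.28 in wildtype replicates 1 to 3. The groups lay 0.15 apart. The rise was 0.31 (SE 0.10, adjusted p = 0.0360), or 0.21 relative to the median of all probes. Clec7a had 2 tested probes among its 4. The brighter (3450736) read 7.56, 7.89 and 7.58 in knock out replicates 1 to 3, against 7.21, 7.38 and 7.42 in wildtype replicates 1 to 3. Knock out replicate 2 was the highest, and the groups lay 0.14 apart. The rise was 0.34 (SE 0.12, adjusted p = 0.0473), or 0.24 relative to the median. The second (3800064) rose by 0.39 (SE 0.13, adjusted p = 0.0356), or 0.29 relative to the median, and the other 2 Clec7a probes were below background.

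These calls changed with the processing. With cyclic loess the Clec12b change was 0.18 (adjusted p = 0.209) and that of the brighter Clec7a probe 0.18 (adjusted p = 0.295), and with housekeeping scaling they were 0.10 and 0.13. Leaving out any single array ended the call of the brighter Clec7a probe (adjusted p from 0.0545 to 0.176), and for Clec12b the call held in 1 of 6 such fits. With beadchip as a block neither was called (adjusted p = 0.0717 for Clec12b). Beside them, 4 of 7 tested dendritic cell genes rose, against 18.3% of all tested named genes, namely the transcription factors Batf3 (+1.35), Irf8 (+0.87) and Zbtb46 (+0.59) and the chemokine receptor Ccr7 (+0.63), while Bst2 fell (-0.65). Cd209a, Flt3, Itgax, Sirpa and Xcr1 were below background on all arrays. The summed linear level of the 12 dendritic cell genes was 22190 to 24140 in knock out samples and 19200 to 21570 in wildtype samples, and its part in these rises was not tested. Other myeloid markers went the other way. All 6 tested neutrophil markers and 5 of 6 tested macrophage and monocyte markers fell, against 23.1% of all tested named genes. Ngp, Retnlg and Adgre1 among them passed the filter through the wildtype arrays alone, so these counts stand as no support for a direction. The part of such cells was not tested either.

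Clec16a carries the family's name but is known as a regulator of autophagy and mitophagy inside the cell, and Clec11a encodes a secreted growth factor of bone and blood-forming cells. The Clec16a probe 101170121 read 8.59, 8.63 and 8.65 in knock out replicates 1 to 3, against 8.23, 7.65 and 7.71 in wildtype replicates 1 to 3. Wildtype replicate 1 stood above the other wildtype samples and below all knock out samples. The rise was 0.76 (SE 0.15, adjusted p = 0.00310), a 1.69-fold change, or 0.66 relative to the median of all probes. Within beadchip 1, which holds wildtype replicate 1, it was 0.65 and was not called (adjusted p = 0.217), and within beadchip 2 it was 0.93 (adjusted p = 0.0160). With the coarse housekeeping scaling it was 0.54 and was not called (adjusted p = 0.0721). A second probe (105420195), designed on a different transcript record, averaged 7.55 ± 0.08 in knock out samples and 7.29 ± 0.05 in wildtype samples (SD, n = 3 each), a difference of 0.26 that did not pass (adjusted p = 0.0542). The third was below background. Clec11a averaged 7.43 ± 0.28 in knock out samples and 7.31 ± 0.09 in wildtype samples, a difference of 0.13 that did not pass and turned to -0.03 with cyclic loess and -0.09 with housekeeping scaling.

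The stretch before the Clec16a start (plus strand of chr16:10545089-10545338) is shown as that of a further gene that rose. Clec2i, which also rose, held 3 CG, and the stretches of Clec12b and Clec7a are not shown.
Clec16a: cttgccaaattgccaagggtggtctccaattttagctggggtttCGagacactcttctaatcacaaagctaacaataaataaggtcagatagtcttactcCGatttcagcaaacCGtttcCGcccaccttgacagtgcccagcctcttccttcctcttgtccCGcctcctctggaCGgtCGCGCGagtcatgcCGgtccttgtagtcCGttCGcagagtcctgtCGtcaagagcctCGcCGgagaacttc
It held 15 CG and no TATA motif, more CG than 72.7% of the entries in the table.

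The other 19 Clec genes were not tested. For 18 of them no probe was above the bound on any array. The exception was Clec4a3, with 1 probe above the bound on 2 knock out arrays (6.85, 6.61 and 6.81 in knock out replicates 1 to 3, against 6.74, 6.79 and 6.75 in wildtype replicates 1 to 3). Over the 33 untested probes, those of tested genes included, values ran from 5.70 to 6.85 and differences from -0.31 to 0.16. The untested genes included the receptors that define myeloid subsets. Among them were Clec9a, a receptor of cross-presenting dendritic cells for dead cells, Clec4e (Mincle) and Clec4d, which bind mycobacterial glycolipid, and Clec4n (Dectin-2), which binds fungal mannans. Others were Clec4a2 (DCIR), Clec10a, a galactose-type lectin of macrophages, Clec5a, Clec12a and Clec14a of endothelium. The rest were Clec1a, Clec3a of cartilage, Clec18a, Clec2g, Clec2h, Clec4a1, Clec4a4, Clec4b1 and Clec4b2. A value at background is a bound and does not show that a transcript was absent.

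By place, 23 of the 30 genes lie on chromosome 6. The run from Clec2h to Olr1, part of the natural killer gene complex, holds 12 of the Clec genes, of which 7 were tested, 2 fell and 3 rose, beside 23.1% lower and 18.3% higher of all tested named genes. Genes that rose and genes that fell were interspersed along it. Clec2i (+0.88) lay a few genes before the receptor gene Klrb1f (-0.45), and Cd69 (-0.51), an activation marker of lymphocytes, stood between Clec2d (+0.18, not called) and Clec2m (-0.73). The 9 Clec genes of a second run, from Clec4a1 to Clec4e, were all untested. Clec4f lies apart on chromosome 6, next to Cd207, which encodes langerin, the lectin of Langerhans cells. Cd207 averaged 6.14 ± 0.01 in knock out samples and 8.58 ± 0.17 in wildtype samples (SD, n = 3 each). It changed by -2.44 (SE 0.11, adjusted p = 1.71e-07), at least 3.44-fold lower. On the other side of Clec4f, Stambp did not pass (+0.01). Clec4g lies on chromosome 8 between Fcer2a, the low-affinity receptor for IgE, which fell (-0.49, adjusted p = 0.0437), and Cd209a, which was below background on all arrays. Dexi, next to Clec16a on chromosome 16, rose by 0.78 (SE 0.10, adjusted p = 2.27e-04). Neighbours were taken among protein-coding genes with a probe on the array, and looked at after the Clec values were known.

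**Figure D4:**
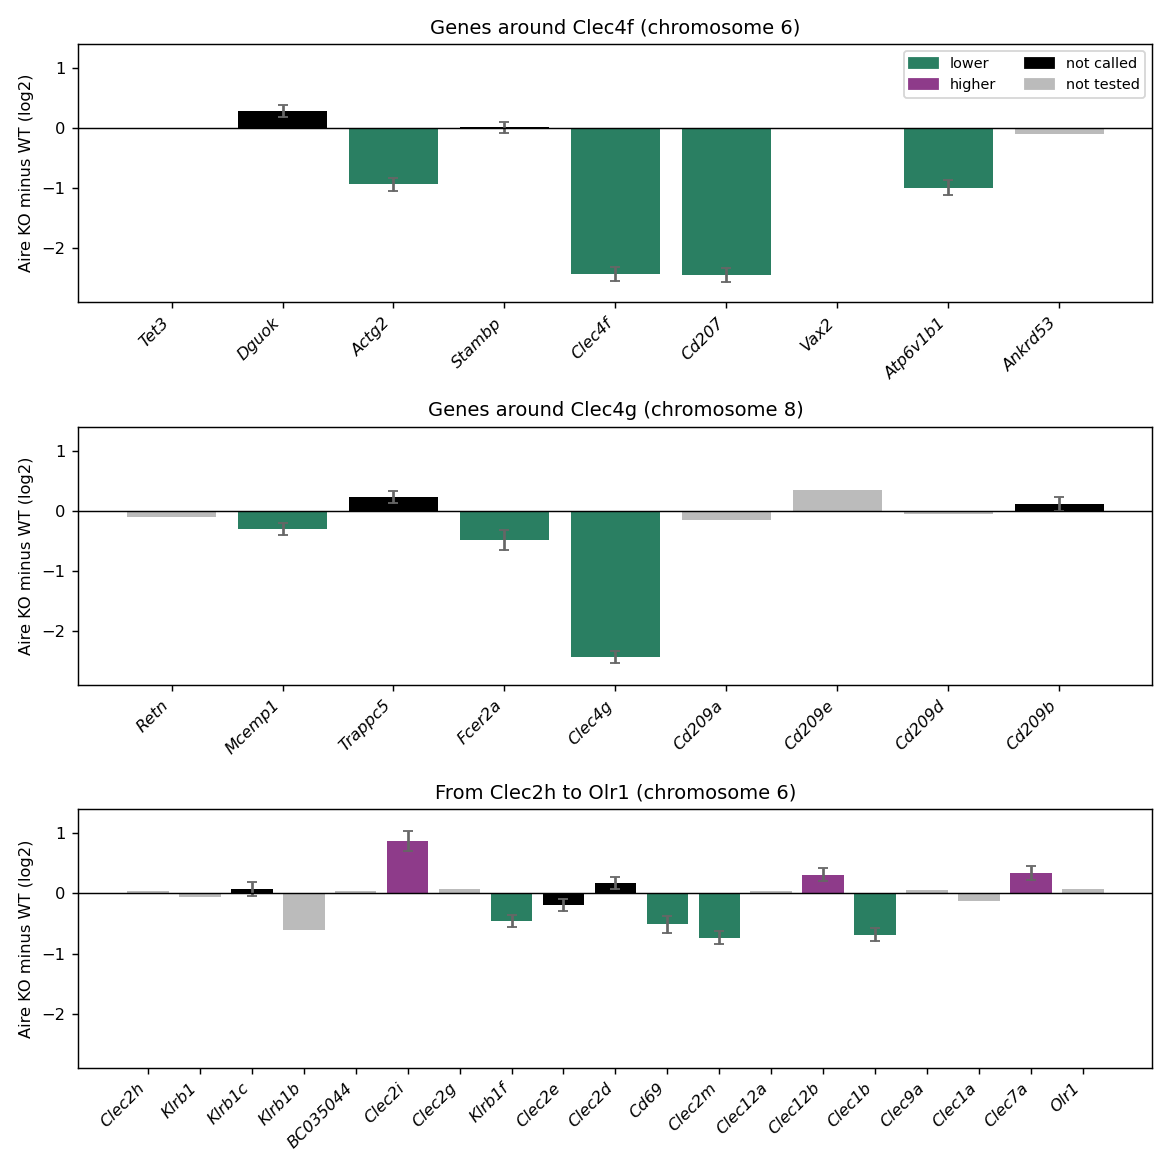
Change of each gene, Aire knock out minus wildtype on the log2 scale, in its order along the chromosome around Clec4f, around Clec4g and from Clec2h to Olr1 (bars with SE for tested genes, coloured by call; untested genes in grey). Clec4f and Cd207 stand side by side at -2.42 and -2.44, whereas the genes on either side of Clec4g changed less, and the run from Clec2h to Olr1 holds genes of both signs.

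Lectin-domain genes that do not carry the Clec name were read from a list of 69, of which 66 are on the array and 29 were tested. Of these 17 fell and 3 rose, beside 23.1% and 18.3% of all tested named genes. Their median change was -0.49, beside 0.02 for all tested named genes and 0.13 for the 11 tested Clec genes. The difference between these lists was not tested. Several of the genes that fell, Cd207 and Cd209f among them, passed the filter through the wildtype arrays alone. The counts and the median therefore stand as no support for a direction. With only probes above the bound on all 6 arrays tested, 4 of 12 genes were called lower and 2 higher. Counted by probe, that setting called 1898 of all 15229 tested probes lower and 3198 higher. Falls included those of Cd207, in Mbl2, which encodes a mannose-binding plasma collectin (-2.30, SE 0.12, adjusted p = 3.52e-07), in Sftpd, the lung surfactant protein D (-2.21, SE 0.12, adjusted p = 6.16e-07), and in Cd209f (at least 1.74-fold lower). The genes that rose were the scavenger receptor Colec12 (+0.77, at least 1.61-fold), Prg2, the major basic protein of eosinophils (+0.58), and Ly75, which encodes the endocytic receptor DEC-205 (+0.43).

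**Figure D5:**
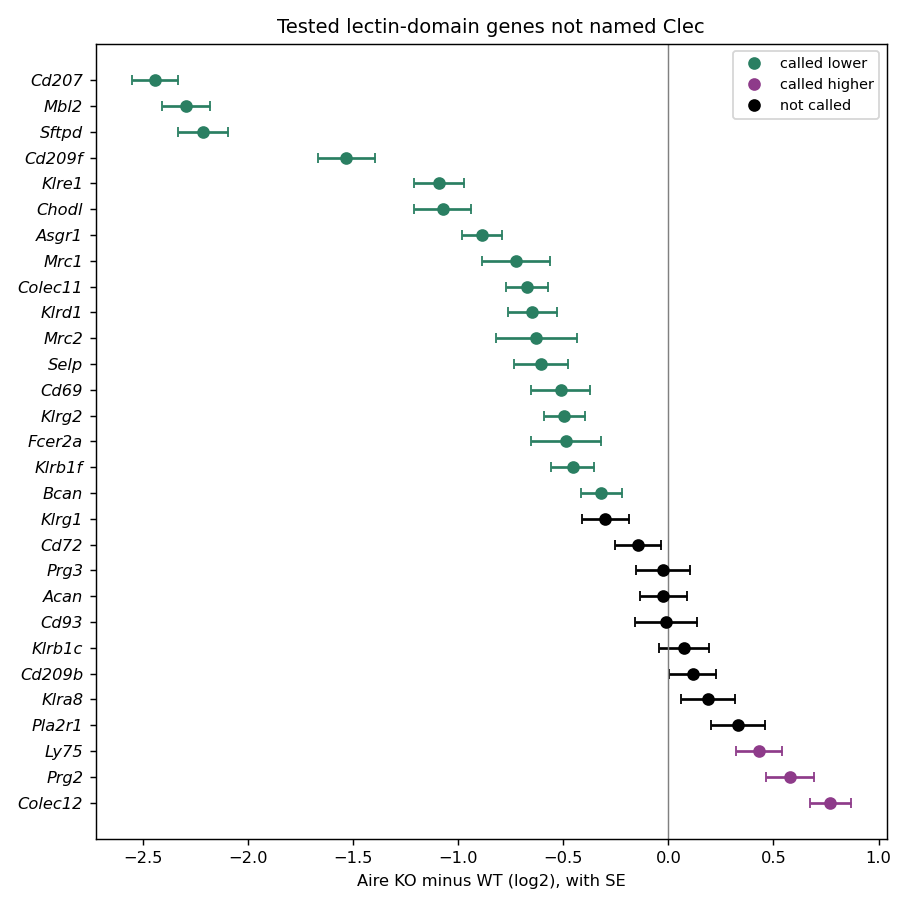
Change with SE, Aire knock out minus wildtype on the log2 scale, of the 29 tested lectin-domain genes without the Clec name. Cd207, Mbl2 and Sftpd lie below -2, 17 genes are called lower and 3 higher.

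Genes that signal downstream of these receptors were read from a list of 40. Of 37 on the array 30 were tested, 7 rose and 2 fell (median 0.16), beside 18.3% higher and 23.1% lower of all tested named genes. Fcer1g, the adaptor chain through which Clec4e and Clec4n signal, rose by 0.95 (SE 0.11, adjusted p = 1.02e-04), Nfatc2 by 0.86 (SE 0.12), Vav2 by 0.69 (SE 0.12) and the kinase gene Src by 0.69 (SE 0.12). Btk fell by 0.30 (SE 0.10) and Trim62, a ubiquitin ligase of Card9, fell by 0.30 (SE 0.09). The probes of Syk, the kinase that many of these receptors recruit, and of its adaptor Card9 were below background on all arrays. With beadchip as a block neither fall was called.

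Whether the genotype effect differed between the sexes was tested by the interaction of sex and genotype in limma, with 2 residual degrees of freedom, females holding 1 knock out sample and males 1 wildtype sample. Of the 14 tested Clec probes 0 passed, and 0 had an unadjusted p under 0.05. The lowest unadjusted p was 0.112, for Clec4f, whose fall was -2.63 in females and -2.22 in males.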

How the data were processed

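Total RNA of mTECs was measured on single-colour Illumina bead arrays. The authors deposited normalized log2 values, 1 per probe and array, with BeadStudio and lumi as the tools named in the submitters' processing notes. The background correction, transform, normalization and genome build were not given in the sources used here. Background stays in the values and compresses the folds of dim genes, and the scale may be a variance-stabilised one rather than plain log2. A further 24 value columns bear names that match no sample and were not used.

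The background bound of each array was the mode of its values plus 3 times the SD below the mode (0.194 to 0.195). Genotypes were compared in limma 3.58.1 under R 4.3.3, with lmFit, eBayes and genotype as the single term, two-sided. For each gene the brightest tested probe by mean was used. Of the probes, 32782 had 1 symbol, 55 several and 13782 none. Symbols were updated through Entrez IDs, which matched for all 30 genes. The fit was tested on simulated data. Beadchip, sex, date label, replicate number, scaling, background correction, filter, variance model and left-out arrays were varied. The members, lists and alternatives were chosen with earlier results of these data known. Every Clec probe may be named, and up to 4 called genes of each pathway list and 3 of each marker list, with those below background. The lists named in full, the neighbouring genes and the genes singled out beyond this rule were chosen after their values were seen. The number of arrays limits the precision.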

Additional observations from a re-analysis of the deposited data

How the results depend on the processing

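The falls of Clec4f and Clec4g were called in each of the 22 alternative fits that tested them, with changes of -3.21 to -2.22 and -3.19 to -2.28. No called Clec probe changed direction. Clec2m was called in 20 of 22 fits, Clec1b in 19 of 22, and Clec2i and Clec16a (101170121) in 20 of 23 each. Clec12b was called in 7 of 23, and the 2 Clec7a probes in 5 of 23 and 8 of 22.

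Testing only probes above background on all 6 arrays left 0 Clec genes called lower, since it removes those that fell to background, with 3 Clec probes called higher and 4 other lectin-domain genes and 0 Clr receptors called lower. A minimum change of 1 log2 unit left 2 Clec probes and genes lower and 0 higher, 6 other lectin genes lower and 0 higher, and 0 signalling genes and Clr receptors in either direction. Within beadchip 1 the Clec calls were 2 lower and 1 higher, and in females only 2 and 0. Clec probes and genes called higher numbered 2 with cyclic loess, 1 with housekeeping scaling, 2 with beadchip and sex as covariates, 2 in males only, 1 within beadchip 2 and 1 with the later date label only. With beadchip as a block they were 3 probes and 2 genes. Leaving out 1 array gave 2 to 3 probes or genes called higher and always 4 lower. Over all tested probes, calls with beadchip as a block were 3178 lower and 3438 higher. With beadchip and sex as covariates they were 3054 and 3051, and at a minimum change of 1 log2 unit 1198 and 334. Within either beadchip, in either sex and with the later date label, calls over all tested probes were fewer in both directions than with all 6 arrays.

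Other lectin-domain genes called lower numbered 8 within beadchip 1, 7 within beadchip 2, 7 in females and 11 with the later date label. Those called higher numbered 0 with housekeeping scaling, within beadchip 1 and in females, and 1 within beadchip 2 and with the later date label. Signalling genes called lower numbered 0 to 1 in most alternatives, namely 0 with housekeeping scaling, beadchip as a block, beadchip and sex, the replicate block, either beadchip, either sex and the later date label, 1 with sex as a covariate or array weights, and 0 to 1 with an array left out. Those called higher numbered 2 with housekeeping scaling, within beadchip 1 and in females, and 1 within beadchip 2. Clr receptors called lower numbered 0 within either beadchip and in females, and 1 in males and with the later date label. Causes were not tested. The split fits hold fewer arrays, and in them a lone array is assumed to vary like the others.

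With the replicate number as a block, 4 Clec genes were called lower and 4 higher, as without it. The numbers did not pair the samples, since deviations of same-numbered arrays correlated at 0.20, -0.060 and -0.016, and knock out replicate 2 correlated best with wildtype replicate 3 (0.26).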

Other observations

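The neighbourhood of Clec16a held further changes in both directions, in genes with other roles. Ciita, the master regulator of MHC class II genes, averaged 12.15 ± 0.09 in knock out samples and 11.78 ± 0.12 in wildtype samples (log2 values, SD, n = 3 each), a rise of 0.37 (SE 0.11, adjusted p = 0.0198, limma). The sperm protamine-transition gene Tnp2 rose by 0.42 (SE 0.12, adjusted p = 0.0203), and Tekt5, a sperm flagellum gene, fell to 7.30 ± 0.06 in knock out samples, against 8.47 ± 0.16 in wildtype samples (adjusted p = 2.65e-05). Near Clec4f, the smooth muscle actin gene Actg2 changed by -0.93 (SE 0.11, adjusted p = 1.16e-04). These genes were chosen for their place beside a Clec gene, after the Clec values were seen.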
